A study of Mus musculus with 10 samples.

Results

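Solute carriers are membrane proteins that move amino acids, sugars, ions, metals, nucleosides and metabolites across the plasma membrane and across the membranes of organelles. The genes described here were the protein-coding genes with a mouse symbol beginning with Slc and a family number, leaving out Slc39a14 and Slc30a1, that reached at least 10 counts in at least 4 of the 10 samples. Of 368 such genes in the count tables, 205 reached that minimum and 163 did not, and 43 of the latter had no count in any sample. The 205 members were placed by family in classes of 31 amino acid carriers, 14 glucose and sugar carriers, 8 monocarboxylate carriers, 30 ion carriers, 23 metal carriers, 39 mitochondrial carriers (Slc25), 22 nucleotide sugar carriers (Slc35) and 34 others. The amino acid class includes the peptide carriers of family Slc15 and the creatine transporter Slc6a8. A further 4 genes carry an Slc symbol without being carriers and were kept apart as scaffold, adaptor or neighbouring genes.

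In skeletal muscle, insulin and contraction bring the glucose transporter Slc2a4 (GLUT4) to the fibre surface, and lactate leaves glycolytic fibres through Slc16a3 (MCT4). Large neutral amino acids enter through light chains of the Slc7 family that pair with the heavy chain Slc3a2 (CD98), and glutamine moves through carriers of the Slc38 family. In the mitochondrial inner membrane, Slc25 proteins exchange ADP for ATP, bring in phosphate and shuttle metabolites between matrix and cytosol.

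RNA was sequenced from the tibialis anterior, the mostly fast-twitch muscle in front of the shin, of 4 Control and 6 tumor-bearing mice, with 1 library per mouse. Lewis Lung Carcinoma (LLC) cells, a mouse lung cancer line whose tumors bring on cachexia, were injected under the skin of both flanks, and Control mice received only PBS. By the sample labels all animals were C57BL/6J, injected at 10 weeks of age. Tumor development is given as 23 days for the LLC samples and as 0 days for Control, which had no tumor, and no separate day of sampling was given for Control, whereas the study's text names male C57BL/10 mice, a younger age and an earlier day. The 6 LLC mice were those that lived through the whole period, so the group holds survivors only.

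Libraries held between 16693209 and 21303084 counts. Solute carriers took 1.03% ± 0.0186 (SD, n = 4) of all counts in Control and 0.908% ± 0.0663 (SD, n = 6) in LLC. As a check of the labelled tissue, the summed level of 8 muscle fibre genes was 108856 to 115782 CPM (counts scaled to a common library total) in Control and 104437 to 121999 in 5 LLC samples, but 70610 in LLC 1. That sample stood apart among the carriers too: it had the highest LLC level of 68 members and the lowest of 74, 33.2% and 36.1% of the 205, against 32.8% and 33.2% of all genes tested. Results that rest on LLC 1 are therefore given with and without it. Summed markers of other cells also differed: neutrophil genes (8 listed) went from 0.689 to 2.02 CPM in Control to 32.8 to 70.9 in LLC, and fibroblast genes (6) from 288 to 370 down to 52.4 to 94.4. Schwann cell genes (5) went from 31.7 to 36.3 down to 17.3 to 22.4, slow-fibre genes (6) from 41.7 to 95.1 down to 9.56 to 33.9, and red cell genes (5) from 58.8 to 83.4 up to 88.7 to 144. The slow-fibre sum was mostly Myl3, at 50.4 ± 22.4 CPM (SD) in Control and 15.9 ± 7.80 in LLC. For the other slow-fibre genes the groups overlapped. Ranges met or overlapped for endothelial (6 genes, 252 to 329 and 248 to 294), macrophage (6 genes, 11.9 to 15.9 and 7.94 to 12.1) and adipocyte genes (5 genes, 1.21 to 8.38 and 1.86 to 4.11). Single genes in these sums still differed. Of the endothelial genes 3 went up and 3 down, with Kdr from 63.1 ± 11.5 CPM in Control to 28.8 ± 10.6 in LLC. Of 5 macrophage genes tested 1 went up and 4 down, with Mrc1 from 3.06 ± 0.389 to 1.48 ± 0.291. Of the 8 muscle fibre genes 1 went up and 7 down. Myh4, the largest part of their sum, went from 39831 ± 1136 CPM in Control up to 43675 ± 9047 in LLC. Acta1 went from 21518 ± 880 down to 15868 ± 3834 and Mylpf from 7073 ± 334 to 5097 ± 1113 (edgeR adjusted p = 0.176 and 0.116). For both, all LLC samples were below all Control samples. Tnnc2 was counted at only 5.88 CPM in Control, and the cause was not tested. No gene of these lists was at 0 in all samples. Their part in the results was not tested, and in whole muscle fewer cells of a type cannot be told apart from less RNA per cell.

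Per length of transcript, Control muscle was dominated by a few carriers. The adenine nucleotide carrier Slc25a4 led at 1751 RPKM (CPM per kilobase of exon), followed by Slc2a4 at 163, the phosphate carrier Slc25a3 at 149, the oxoglutarate carrier Slc25a11 at 147, the aspartate-glutamate carrier Slc25a12 at 81.4 and Slc16a3 at 74.3. All 6 serve energy metabolism, and all 6 had a lower mean RPKM in LLC, at 1260, 109, 113, 97.7, 66.0 and 39.2. Mitochondrial carriers took 60.4% ± 0.680 of solute carrier counts in Control and 55.8% ± 5.39 in LLC, and Slc25a4 alone took 37.96% ± 0.707 and 33.1% ± 5.43. The LLC mean leaned on LLC 1, where the class took 45.1%, while the other 5 LLC samples ranged from 55.7% to 59.4%. The share of amino acid carriers went the other way, from 8.93% ± 0.275 to 12.1% ± 3.35, with 18.8% in LLC 1 and 9.73% to 11.6% in the other 5. Ion carriers took 4.64% ± 0.282 in Control and 6.49% ± 1.56 in LLC, and monocarboxylate carriers 4.38% ± 0.327 and 3.00% ± 0.559. All are shares of 1 total, so a share can rise without a general rise in its class. Of the 30 ion carriers, 12 had a positive and 18 a negative log2 fold change.

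**Figure D1:**
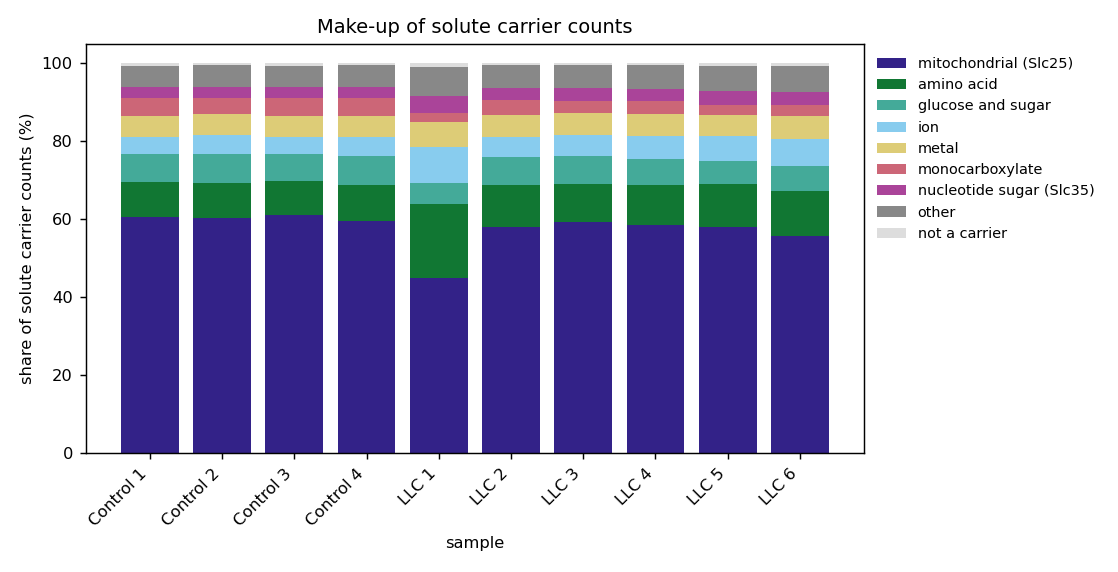
Stacked bars give the share (%) of all solute carrier counts taken by each class in each of the 4 Control and 6 LLC samples. The mitochondrial share is 59.5% to 61.1% in Control and falls to 45.1% in LLC 1, where the amino acid share is 18.8%.

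With all 12690 genes fitted together, 10 of the 205 members (4.88%) passed the threshold, which asked for both an adjusted p at or under 0.05 and a 1.5-fold difference, against 5.63% of all genes tested. Of these, 4 rose (1.65% of all genes did) and 6 fell (3.99% of all genes did), so the share of carriers called was near the background. By adjusted p alone 18 members (8.78%) passed against 6.99% of all genes, 5 of them higher and 13 lower. In 12 members all LLC samples lay above all Control samples, against a background of 6.40%, and in 27 they lay below, against 9.57%. The median log2 fold change was -0.08 over the members, 81 positive and 124 negative, and 0.00 over all genes, 6382 positive and 6308 negative. DESeq2's Wald test called 24 members (11.7%, 10 higher and 14 lower) against 8.29% of all genes, and among them were all 10 called by edgeR. The DESeq2 background was 3.06% higher and 5.23% lower. At an unadjusted p of 0.05 or less stood 57 members (27.8%) and 27.4% of all genes. Without LLC 1, 18 members (8.78%) were called against 7.65% of all genes, 5 higher (2.28% of all genes) and 13 lower (5.37% of all genes), and 8 of the 10 were among them.

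The 10 members came from several classes and carry unlike cargo. Those that rose were Slc3a2 and Slc43a1, which serve large neutral amino acids, the chloride cotransporter Slc12a2 and the steroid sulfate carrier Slc10a6. Those that fell were the glutamine carrier Slc38a3, Slc26a10 of the anion exchanger family, the mitochondrial carriers Slc25a10 and Slc25a47, the organic cation exporter Slc47a1 and the nucleoside carrier Slc28a2. For all 10, no LLC sample overlapped a Control sample. The call on Slc26a10 held with any single sample left out, with adjusted p between 0.00117 and 0.00838. Slc25a47 lost it without Control 2, 3 or 4, at an adjusted p of up to 0.0583. The other 8 lost it without each of Control 2, 3 and 4, and all 8 lost it without Control 1 as well and without LLC 5, with the highest adjusted p of each gene between 0.0763 and 0.143. Leaving out LLC 1 took the call only from Slc3a2 and Slc12a2, whose log2 fold changes were then 0.56 (adjusted p = 0.00949) and 0.52 (adjusted p = 0.019), under the 1.5-fold minimum. Further losses were Slc10a6 without LLC 3, Slc25a10 without LLC 4, and Slc38a3, Slc43a1, Slc12a2, Slc25a10, Slc47a1, Slc28a2 and Slc10a6 without LLC 6.

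**Figure D2:**
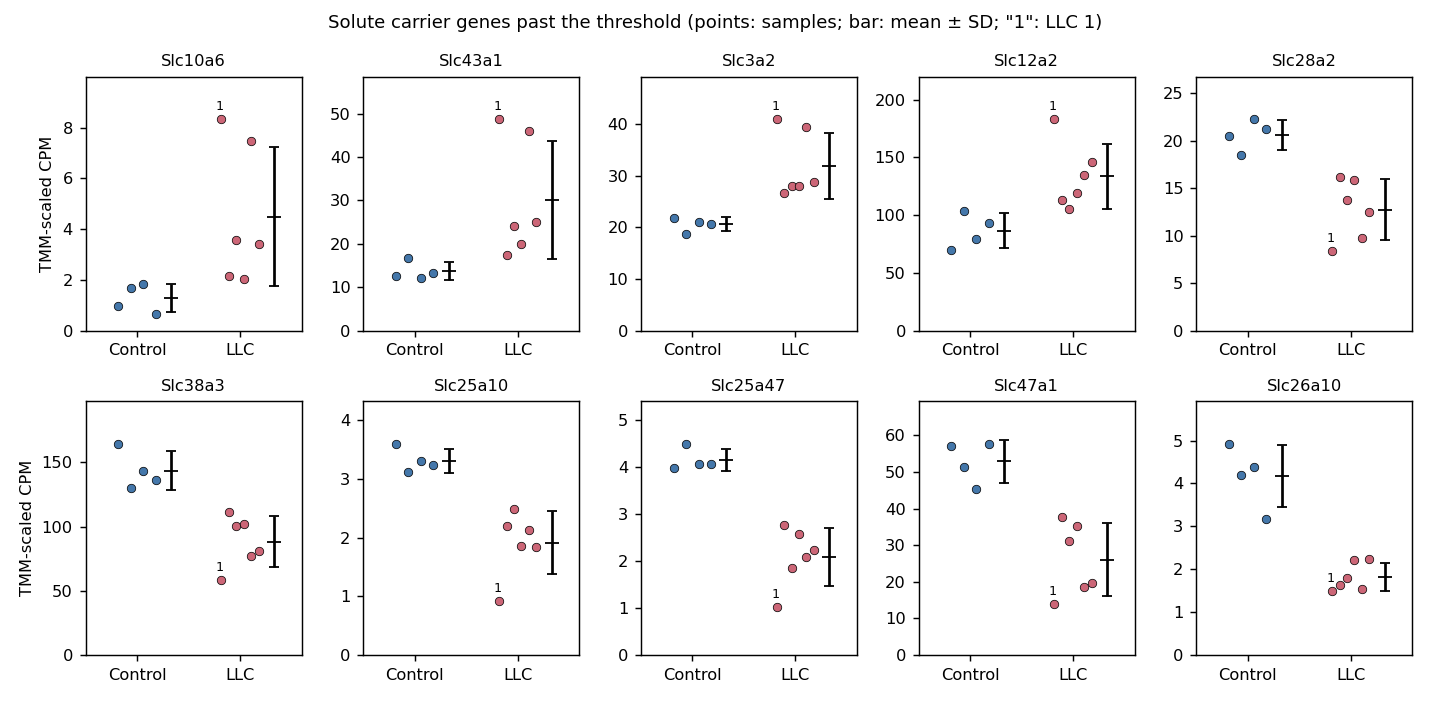
Each panel gives the CPM of 1 of the 10 called carriers in the 4 Control (blue) and 6 LLC (red) samples, with mean ± SD beside the points and LLC 1 numbered. The groups are apart in every panel, and LLC 1 and LLC 5 are the highest LLC samples for Slc10a6, Slc43a1 and Slc3a2, with LLC 1 at 8.33, 48.7 and 40.9 CPM.

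**Figure D3:**
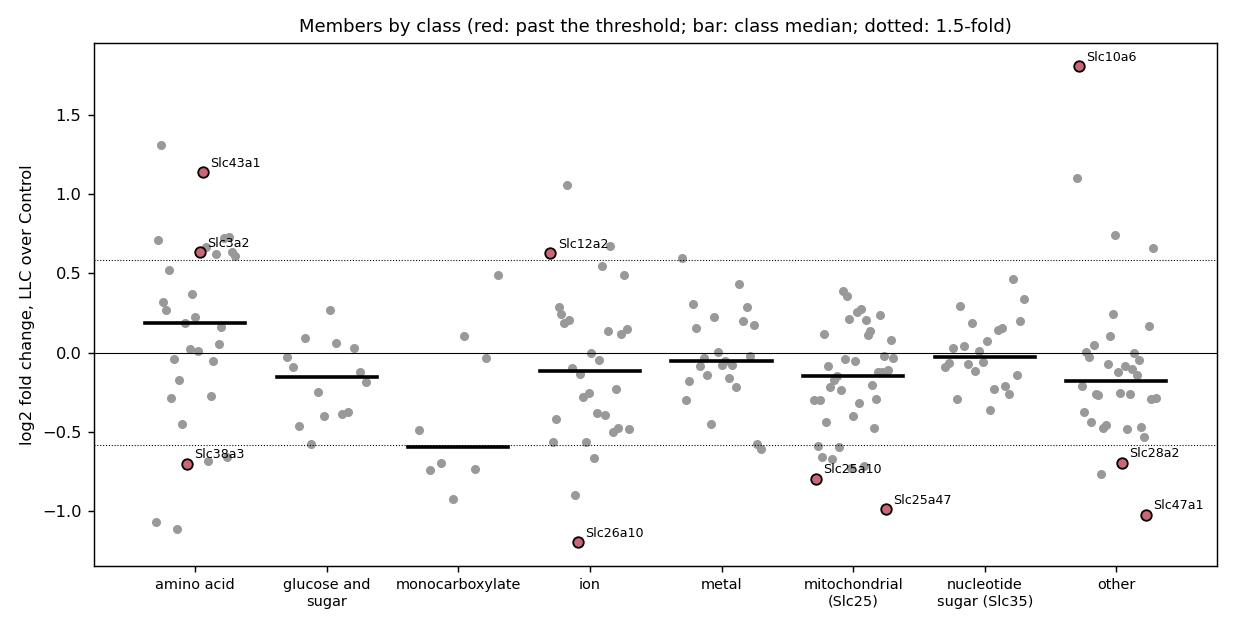
Each point is the log2 fold change (LLC over Control) of 1 member, placed by class, with called members in red, class medians as bars and dotted lines at 1.5-fold. The amino acid class has its median at 0.19 and the monocarboxylate class at -0.59, while the other 6 lie between -0.18 and -0.03.

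Among amino acid carriers, 20 of 31 had a positive and 11 a negative log2 fold change, with a median of 0.19. Of these, 2 rose and 1 fell (9.68% of the class, 5.63% of all genes), and DESeq2 called 5 higher and 1 lower (19.4%, against 8.29%). Without LLC 1, 4 were called, 2 higher and 2 lower (12.9%, against 7.65%). Slc15a4, a peptide carrier named after its values were seen, was among the higher calls by DESeq2 and without LLC 1. LLC 1 was the highest LLC sample for 13 of the 20 with a positive value, and without it the class median was 0.06. Slc3a2 (chr19:8706882-8723369), the heavy chain that brings Slc7 light chains to the surface, was measured at 21.8, 18.6, 21.04 and 20.7 CPM in Control and between 26.5 and 40.9, with a median of 28.3, in LLC. LLC 1 and LLC 5 were above the other 4 LLC samples, which sat close together. Its log2 fold change was 0.63 ± 0.14 (SE), 1.55-fold, with an adjusted p of 0.0221. Slc43a1 (chr2:84838850-84863594), known as LAT3 and a carrier of branched-chain amino acids that needs no heavy chain, was measured at 12.6, 16.8, 12.2 and 13.3 CPM in Control. In LLC it lay between 17.5 and 48.7 with a median of 24.5, again with LLC 1 and LLC 5 on top. The log2 fold change was 1.14 ± 0.30, 2.20-fold, with an adjusted p of 0.042.

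The promoters of both genes are shown because these were the amino acid carriers that rose. They were taken from RefSeq on GRCm38.p6, as 250 bases before to 50 after the annotated start, at chr19:8713848-8714147 on the minus strand for Slc3a2 and chr2:84840073-84840372 on the plus strand for Slc43a1.
Slc3a2: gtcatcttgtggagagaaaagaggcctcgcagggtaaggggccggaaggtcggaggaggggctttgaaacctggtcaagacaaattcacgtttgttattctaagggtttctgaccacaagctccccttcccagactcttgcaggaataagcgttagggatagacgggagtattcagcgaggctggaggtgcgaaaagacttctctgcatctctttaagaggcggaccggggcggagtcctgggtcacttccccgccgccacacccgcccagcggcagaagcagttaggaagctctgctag
Slc43a1: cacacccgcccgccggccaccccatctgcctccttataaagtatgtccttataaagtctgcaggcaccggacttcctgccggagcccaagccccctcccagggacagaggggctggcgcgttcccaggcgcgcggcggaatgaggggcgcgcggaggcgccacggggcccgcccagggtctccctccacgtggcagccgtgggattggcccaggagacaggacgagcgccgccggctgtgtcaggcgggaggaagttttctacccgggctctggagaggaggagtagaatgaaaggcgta
Neither window held any of 4 motifs searched on both strands, namely TGATGNAA (the CARE element bound by ATF4), GTAAACA (FoxO), TTCCNGGAA (STAT) and TGANTCA (AP-1), so no letters are in capitals.

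Slc38a3 (chr9:107650634-107669530), or SNAT3, which couples glutamine, histidine and asparagine to sodium, fell. It was measured at 165, 130, 144 and 136 CPM in Control and between 58.3 and 111, with a median of 90.6, in LLC. LLC 1 was lowest, followed by LLC 5 and LLC 6. The fitted log2 change was -0.70 ± 0.16 (adjusted p = 0.0254), and without LLC 1 it was -0.60 (adjusted p = 0.0055).

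The relatives of these genes did not pass with all samples. Slc38a2 (SNAT2), which carries small neutral amino acids, was at 118 ± 13.5 CPM in Control (SD, n = 4) and 135 ± 31.2 in LLC (n = 6), where LLC 1 reached 196 and the other 5 lay between 113 and 140. Slc38a4, the member of its class with the highest RPKM, was at 128 ± 7.92 and 130 ± 25.8 CPM. Slc7a5 (LAT1), a light chain partner of Slc3a2, was scarce at 1.62 ± 0.347 CPM in Control and 1.03 ± 0.233 in LLC, with a log2 fold change of -0.66 ± 0.21 (adjusted p = 0.0831), opposite in sign to that of its heavy chain. Without LLC 1 it was -0.74 (adjusted p = 0.0365), past the threshold. Other light chains had positive values: 0.73 for Slc7a6, 0.63 for Slc7a7 and 0.61 for Slc7a8 (adjusted p = 0.102, 0.0962 and 0.401). Slc7a6 and Slc7a7 were named after their values were seen. Only Slc7a6 of these had its groups apart, and DESeq2 called it higher (adjusted p = 0.0467). Without LLC 1 the values were 0.47, 0.65 and -0.02. Slc7a8 was at 31.8 CPM in LLC 1 and 5.75 to 8.50 in the other 5 LLC samples. The cationic amino acid carrier Slc7a2 was measured at 45.6, 59.997, 54.3 and 53.4 CPM in Control and between 66.0 and 151, with a median of 76.2, in LLC. The groups were apart, but the adjusted p was 0.0774 by edgeR and 0.0249 by DESeq2, with a log2 fold change of 0.72 ± 0.23 that became 0.51 without LLC 1. Its relative Slc7a1 was at 2.73 ± 0.549 and 2.83 ± 0.950 CPM.

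Other carriers of this class that are well known in muscle did not pass either. The creatine transporter Slc6a8 was at 117 ± 8.98 CPM in Control and 112 ± 11.8 in LLC, and the taurine transporter Slc6a6 at 94.8 ± 9.61 and 78.5 ± 12.4. The glutamine and neutral amino acid exchanger Slc1a5 was at 7.79 ± 1.85 and 6.37 ± 1.15. Their adjusted p were 0.732, 0.197 and 0.309, and the groups overlapped for all 3.

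Glucose and sugar carriers gave no call among 14 members, of which 4 had a positive and 10 a negative log2 fold change, with a median of -0.15. DESeq2 called none either, and the unadjusted p was at or under 0.05 for 2 (14.3%, against 27.4% of all genes). Slc2a4, the insulin-responsive glucose transporter, was measured at 573, 559, 553 and 587 CPM in Control. In LLC it lay between 295 and 479 with a median of 381, and LLC 1, LLC 5 and LLC 6, at 295, 297 and 328, made up a lower set apart from the other 3. This gave a log2 fold change of -0.58 ± 0.15 with an adjusted p of 0.0431, passing by p but just under the 1.5-fold minimum. Slc2a1 (GLUT1), the basal glucose transporter, was at 4.26 ± 0.344 CPM in Control and 4.18 ± 1.08 in LLC. Slc37a4, which brings glucose-6-phosphate into the endoplasmic reticulum, was at 125 to 137 CPM in Control and 100 to 146 in 5 LLC samples, but 18.7 in LLC 1, and its log2 fold change of -0.38 ± 0.38 (adjusted p = 0.518) was -0.16 without that sample. Slc50a1 was at 8.01 ± 1.01 and 7.36 ± 0.703 CPM.

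Monocarboxylate carriers had the lowest class median, -0.59, with 6 of 8 members negative, though none passed the threshold. DESeq2 called 2 lower (25% of the class, against 5.23% of all genes). The unadjusted p was at or under 0.05 for 4 of the 8 members (50%, against 27.4% of all genes). Slc16a3, which exports lactate, was measured at 423, 345, 425 and 389 CPM in Control and between 81.8 and 312, with a median of 210, in LLC. All LLC samples were below all Control samples, with LLC 1 lowest and LLC 5 and LLC 6 next. LLC over Control, the log2 fold change was -0.92 ± 0.29, with an adjusted p of 0.0774 by edgeR and 0.0263 by DESeq2, and without LLC 1 it was -0.75 (adjusted p = 0.0151). Slc16a1 (MCT1), which takes up lactate in oxidative fibres, was at 64.4, 60.6, 70.2 and 64.9 CPM in Control. In LLC it was at 39.0 to 45.9 in 5 samples, while LLC 1, at 64.7, lay within the Control range. Its log2 fold change was -0.49 ± 0.13 with an adjusted p of 0.0476, and without LLC 1 it was -0.60 with an adjusted p of 0.000236 and passed the threshold. Slc16a6 was at 6.37 to 7.08 CPM in Control and 2.31 to 5.49 in LLC, with a log2 fold change of -0.74 ± 0.23 (adjusted p = 0.0769). Without LLC 1, these 3 of the 8 members were called lower, against 5.37% of all genes. Of their partners, basigin (Bsg), the chaperone of Slc16a1 and Slc16a3, was at 459 ± 18.1 and 325 ± 61.5 CPM with a log2 fold change of -0.50 ± 0.14 (adjusted p = 0.0579). Embigin (Emb), another chaperone of Slc16a1, was scarce at 0.342 ± 0.0897 CPM and rose to 1.06 ± 0.227, with a log2 fold change of 1.62 ± 0.26 (adjusted p = 0.00296).

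Mitochondrial carriers were lower in 28 and higher in 11 of 39 members by the sign of the log2 fold change, with a median of -0.15. Of these, 2 fell and none rose by edgeR (5.13%, against 5.63% of all genes), and the unadjusted p was at or under 0.05 for 11 (28.2%, against 27.4%), both near the background. DESeq2 called 6 lower (15.4%, against 5.23%), and in 9 of the 39 every LLC sample lay below every Control sample, against 9.57% of all genes. Slc25a47 (chr12:108836046-108856815), a carrier best known from liver, was measured at 3.97, 4.49, 4.06 and 4.05 CPM in Control and between 1.03 and 2.77, with a median of 2.16, in LLC. The Control values were tight and LLC 1 was the lowest sample. The log2 fold change was -0.99 ± 0.21 (adjusted p = 0.0172). Its exons overlap the microRNA gene Mir345 on the same strand. Slc25a10 (chr11:120491840-120499187), which exchanges dicarboxylates such as malate and succinate for phosphate, was at 3.60, 3.11, 3.30 and 3.23 CPM in Control and between 0.926 and 2.49, with a median of 2.00, in LLC. The fitted log2 change was -0.80 ± 0.21 (adjusted p = 0.0445), and the antisense gene Gm11788 overlaps its exons. Both called genes were among the scarcer carriers of the class.

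The abundant mitochondrial carriers had lower means in LLC without passing the threshold. Slc25a4, the ADP/ATP carrier of muscle, was measured at 4239, 4066, 4226 and 3946 CPM in Control, and in LLC at 1531 in LLC 1 and 2761 to 3584 in the other 5. This gave a log2 fold change of -0.47 ± 0.20 with an adjusted p of 0.16, and without LLC 1 it was -0.33 with an adjusted p of 0.0335. Slc25a3, which imports phosphate for ATP synthesis, was at 806 to 880 CPM in Control and 492 to 707 in LLC, with a log2 fold change of -0.40 ± 0.11 (adjusted p = 0.0531). Slc25a11 and Slc25a12, which work in the malate-aspartate shuttle, had log2 fold changes of -0.59 ± 0.20 (adjusted p = 0.0953) and -0.30 ± 0.14 (adjusted p = 0.177). For all 4 the LLC samples lay below the Control samples. Without LLC 1 the log2 fold changes of Slc25a3, Slc25a11 and Slc25a12 were -0.34, -0.46 and -0.21 (adjusted p = 0.0145, 0.0200 and 0.0983). All stayed under the 1.5-fold minimum. The ADP/ATP carrier of other tissues, Slc25a5, was at 31.1 ± 3.27 CPM in Control and 28.8 ± 4.98 in LLC, a level that is uncertain because processed copies of the gene could share its reads. The carnitine-acylcarnitine carrier Slc25a20 was at 71.1 ± 3.40 and 63.0 ± 6.25 CPM, and mitoferrin 1 (Slc25a37), which brings iron into mitochondria, at 19.6 ± 1.24 and 21.2 ± 4.51.

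**Figure D4:**
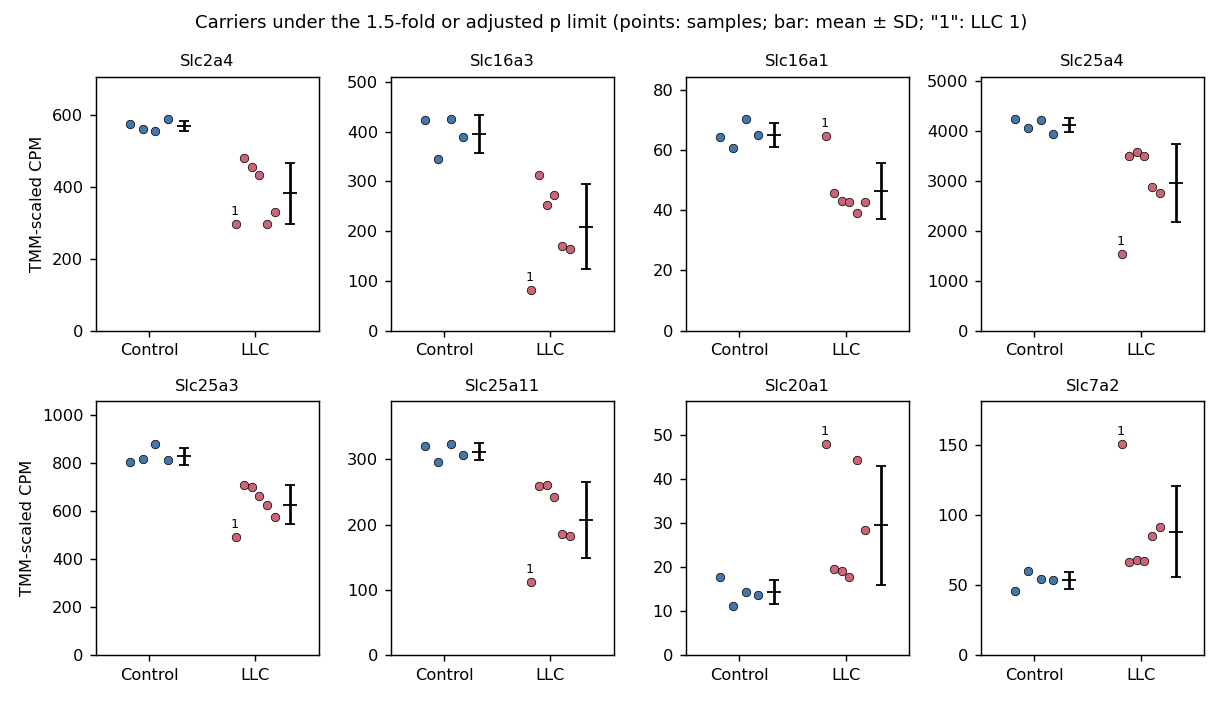
CPM in each Control (blue) and LLC (red) sample, with mean ± SD, of 8 carriers that missed the fold or the adjusted p limit. LLC 1, numbered, is the lowest sample for Slc2a4, Slc16a3, Slc25a4, Slc25a3 and Slc25a11, the highest for Slc20a1 and Slc7a2, and lies at 64.7 within the Control range for Slc16a1.

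Ion carriers moved in both directions, with 12 of 30 positive, 18 negative and a median of -0.12. Of these, 1 rose and 1 fell (6.67%, near the 5.63% of all genes), and 5 in all passed by adjusted p alone (16.7%, against 6.99%). Slc26a10 (chr10:127171393-127180645) gave the lowest adjusted p of all members. It was measured at 4.93, 4.20, 4.38 and 3.18 CPM in Control and between 1.49 and 2.24, with a median of 1.72, in LLC. The 6 LLC values were close together and LLC 1 did not stand apart from LLC 5 and LLC 2. LLC over Control, the log2 fold change was -1.20 ± 0.17 (adjusted p = 0.00149), and without LLC 1 it was -1.14. The gene is written on the strand opposite to B4galnt1, whose exons overlap its own, and since it is not known whether the tables were counted by strand, reads of the 2 genes cannot be told apart with certainty. Its RefSeq promoter (GRCm38.p6, chr10:127180533-127180832, minus strand) is shown because this was the steadiest call and because it alone, of 7 called members with a promoter entry, held a searched motif, set in capitals.
Slc26a10: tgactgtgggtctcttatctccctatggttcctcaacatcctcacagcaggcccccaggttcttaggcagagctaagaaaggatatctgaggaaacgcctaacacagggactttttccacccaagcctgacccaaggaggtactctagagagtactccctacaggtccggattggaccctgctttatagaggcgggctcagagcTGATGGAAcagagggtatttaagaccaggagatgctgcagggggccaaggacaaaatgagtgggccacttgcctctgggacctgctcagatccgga
The capitals mark TGATGGAA, a match to TGATGNAA that begins at position -46 from the start. This motif occurred in 3.97% of all 32851 promoters of the same length and in 2.80% of 214 promoters of 160 members. The shares for GTAAACA were 3.65% and 0.467%, for TGANTCA 7.81% and 5.14%, and for TTCCNGGAA 1.15% of all promoters with 0 of the 214. The motifs TGATGNAA and TGANTCA begin with the same letters but cannot match the same bases in register. Slc28a2, Slc10a6, Slc25a10 and Slc25a47 held no match, and no entry was given for Slc38a3, Slc47a1 and Slc12a2.

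Slc12a2 (NKCC1), which brings sodium, potassium and chloride into the cell, rose. It was measured at 69.6, 104, 79.2 and 93.5 CPM in Control and between 106 and 183, with a median of 127, in LLC. LLC 1 was highest, and the lowest LLC sample was just above the highest Control sample. The log2 fold change was 0.63 ± 0.17 (adjusted p = 0.044). Slc8a1 (NCX1), the sodium-calcium exchanger of heart, was at 10.1 ± 1.76 CPM in Control and 14.7 ± 1.93 in LLC, with a log2 fold change of 0.55 ± 0.14 (adjusted p = 0.0338), under the 1.5-fold minimum. Slc8a3 (NCX3), the exchanger of fast muscle, was at 60.3 to 74.1 CPM in Control and 47.7 to 71.5 in 5 LLC samples, but 9.41 in LLC 1. Its adjusted p was 0.51. Slc12a4 and Slc26a6, named here after their values were seen, also passed by p alone, both with a log2 fold change of -0.56 (adjusted p = 0.0137 and 0.0252), and without LLC 1 Slc12a4 passed the threshold at -0.61.

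The sodium-phosphate cotransporter Slc20a1 (PiT1) was measured at 17.7, 11.1, 14.4 and 13.6 CPM in Control and between 17.6 and 48.0, with a median of 24.0, in LLC. LLC 1 and LLC 5 were highest, and the lowest LLC sample, LLC 4, was level with the highest Control sample. The fitted log2 change was 1.05 ± 0.31, with an adjusted p of 0.0642 by edgeR and 0.0102 by DESeq2, and without LLC 1 it was 0.87 (adjusted p = 0.0425), past the threshold. Slc20a2 (PiT2) was at 73.5 ± 1.70 and 84.8 ± 16.6 CPM.

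**Figure D5:**
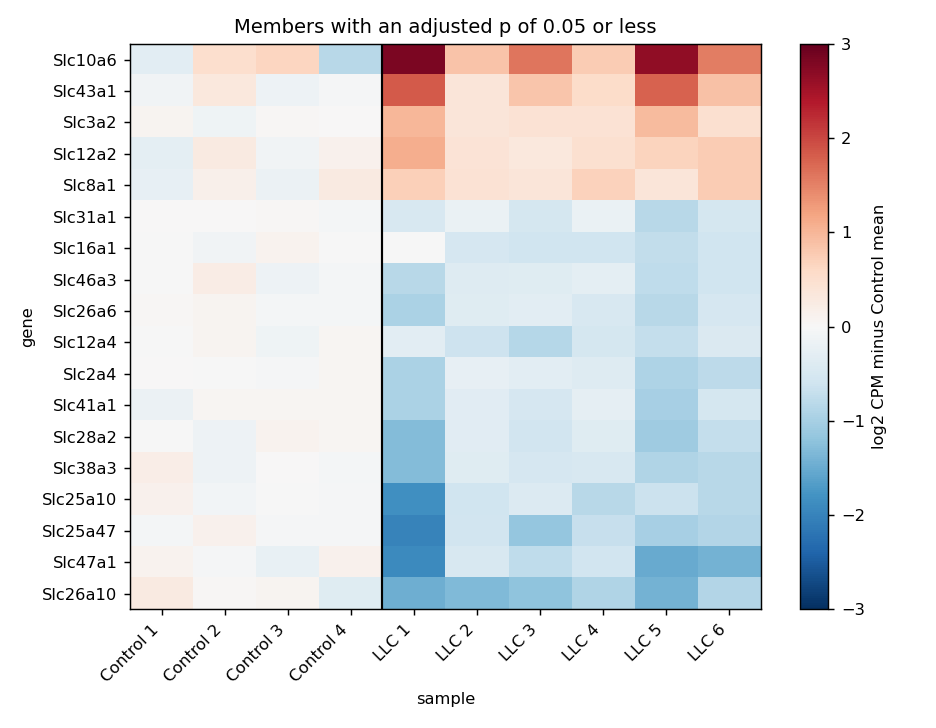
Colors give log2 CPM minus the Control mean in each sample for the 18 members with an adjusted p of 0.05 or less, ordered by log2 fold change from Slc10a6 to Slc26a10. The 5 upper rows are red and the 13 lower rows blue in LLC, except for Slc16a1, which stays at the Control level in LLC 1.

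Metal carriers gave no call among 23 members, 9 positive and 14 negative, with a median of -0.06. DESeq2 called none either, and the unadjusted p was at or under 0.05 for 4 (17.4%, against 27.4% of all genes). Slc41a1, which exports magnesium, was measured at 85.9, 101, 101 and 101 CPM in Control and between 48.4 and 80.7, with a median of 67.7, in LLC. All LLC samples were below all Control samples. This gave a log2 fold change of -0.58 ± 0.15 (adjusted p = 0.0369), just under the 1.5-fold minimum. Slc41a3, of the same family, was at 99.9 ± 6.35 CPM in Control and 65.4 ± 27.8 in LLC, with groups that overlapped because LLC 3 reached 103, and its adjusted p was 0.191. The copper importer Slc31a1, named after its values were seen, had a log2 fold change of -0.45 ± 0.12 (adjusted p = 0.043). Ferroportin (Slc40a1), the exporter of iron, was at 58.0 ± 5.39 and 65.5 ± 4.72 CPM (adjusted p = 0.228), and the zinc importer Slc39a1 at 34.6 ± 2.62 and 34.7 ± 5.49. The transferrin receptor (Tfrc), which brings iron into cells and is no solute carrier, fell from 259 ± 17.9 to 71.1 ± 47.7 CPM, with a log2 fold change of -1.87 ± 0.45 (adjusted p = 0.0304).

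Nucleotide sugar carriers, which supply the Golgi and the endoplasmic reticulum with substrates for glycosylation, had the smallest median absolute log2 fold change of the carrier classes, 0.15. None of 22 passed by edgeR, with or without the fold minimum, or was called by DESeq2, 11 were positive and 11 negative, the unadjusted p was at or under 0.05 for 1 (4.55%, against 27.4% of all genes), and the median was -0.03. The 3 with the highest RPKM were Slc35a4 at 57.4 ± 3.77 CPM in Control and 46.8 ± 5.31 in LLC, Slc35e1 at 67.8 ± 4.87 and 57.9 ± 10.1, and Slc35b1 at 30.5 ± 1.76 and 31.4 ± 2.51. Their adjusted p were 0.0999, 0.283 and 0.762.

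Among the 34 other carriers, 9 were positive and 25 negative with a median of -0.18, and 1 rose while 2 fell (8.82%, against 5.63% of all genes). Slc10a6 (chr5:103605711-103629403), which carries sulfated steroids, had the largest log2 fold change of all 205 members. It was scarce, at 0.953, 1.68, 1.84 and 0.657 CPM in Control and between 2.02 and 8.33, with a median of 3.50, in LLC. LLC 1 and LLC 5 were more than 3 CPM above the other 4. LLC over Control, the log2 fold change was 1.81 ± 0.48 (adjusted p = 0.044), and without LLC 1 it was 1.55 (adjusted p = 0.0297). Slc47a1 (chr11:61343401-61378345), or MATE1, which exports organic cations in exchange for protons, was at 57.0, 51.5, 45.3 and 57.7 CPM in Control. In LLC it lay between 13.9 and 37.8 with a median of 25.4, and LLC 1, LLC 5 and LLC 6 formed the lower set. Its log2 fold change was -1.02 ± 0.25 (adjusted p = 0.0319). Slc28a2 (chr2:122426477-122461137), which couples purine nucleosides to sodium, was at 20.4, 18.5, 22.2 and 21.3 CPM in Control and between 8.33 and 16.2, with a median of 13.1, in LLC, for a log2 fold change of -0.69 ± 0.17 (adjusted p = 0.035). The equilibrative nucleoside carrier Slc29a1 was at 24.0 ± 0.812 and 22.6 ± 2.50 CPM (adjusted p = 0.578).

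Carriers of fatty acids, carnitine, choline and heme did not pass. Slc27a1, which brings in long-chain fatty acids, was at 78.6 ± 3.95 CPM in Control and 92.8 ± 12.2 in LLC (adjusted p = 0.177). The carnitine carrier Slc22a5 was at 10.4 ± 0.808 and 9.90 ± 1.93, the choline carrier Slc44a2 at 177 ± 3.39 and 172 ± 28.5, and the heme carrier Slc48a1 at 47.9 ± 0.579 and 53.7 ± 11.7. The adjusted p of these 3 were 0.778, 0.835 and 0.461. The lysosomal carrier Slc46a3, named after its values were seen, passed by p alone with a log2 fold change of -0.54 ± 0.14 (adjusted p = 0.0364). Of the 4 genes that are no carriers, none passed, and the scaffold Slc9a3r2, the adaptor Slc4a1ap and Slc7a6os had log2 fold changes of -0.41, 0.29 and 0.34.

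Pairs of carriers for the same cargo were compared within samples as log2 ratios of their levels per length (count plus 0.5, divided by exonic length), which do not depend on library scaling. The ratio of Slc7a5 to Slc7a8, light chains of Slc3a2, was -1.73 ± 0.21 (SD, n = 4) in Control and -2.75 ± 0.78 (n = 6) in LLC, a difference of -1.02 (exact permutation test, two-sided, p = 0.0286, adjusted p = 0.0714). That of Slc20a1 to Slc20a2 was -2.23 ± 0.30 and -1.47 ± 0.50, a difference of 0.77 (exact permutation test, two-sided, p = 0.0286, adjusted p = 0.0714). The ratio of Slc2a4 to Slc2a1 differed by -0.54 (exact p = 0.0762), that of Slc16a3 to Slc16a1 by -0.54 (exact p = 0.257) and that of Slc25a4 to Slc25a5 by -0.41 (exact p = 0.238). With adjustment over the 5 pairs none passed, where the smallest p that the 210 splits allow is 0.00952. The last 2 ratios leaned on LLC 1: without it the differences were -0.19 and -0.16. Without LLC 1 the Slc7a5 to Slc7a8 difference was also smaller in size, at -0.74, and that of Slc2a4 to Slc2a1 was -0.37. The Slc7a5 to Slc7a8 ratio was -4.11 in LLC 1 and lay between -2.85 and -1.70 in the other 5 LLC samples.

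Proteins that work with solute carriers, or carry solutes under other names, were followed as a list of 36 genes, of which 31 were tested. Of these 2 rose and 2 fell (12.9%, against 5.63% of all genes), 13 were positive and 18 negative, and the median log2 fold change was -0.04. Beside Emb and Tfrc, the calls were the prostaglandin carrier Slco2a1, which rose from 1.69 ± 0.470 to 3.29 ± 1.01 CPM (log2 fold change 0.96 ± 0.25, adjusted p = 0.0444), and the sodium pump subunit Atp1b1, which fell from 252 ± 19.5 to 101 ± 42.8 CPM (-1.32 ± 0.30, adjusted p = 0.024). The mitochondrial pyruvate carrier subunits Mpc1 and Mpc2 had log2 fold changes of -0.44 ± 0.11 (adjusted p = 0.0284) and -0.46 ± 0.17 (adjusted p = 0.113), both under the 1.5-fold minimum. Without Control 1, 2, 3 or 4, or without LLC 5 or 6, 1 gene of this list was called.

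The spread between LLC samples was larger than that between Control samples for 167 of the 205 members (81.5%), as it was for 85.1% of all genes tested. The median SD of log2 CPM over members was 0.15 in Control and 0.29 in LLC. Among members with a positive log2 fold change, LLC 1 was the highest LLC sample for 42 of 81, and among those with a negative value it was the lowest for 60 of 124, with LLC 5 the lowest for 24. LLC 1 itself helped to set these signs, here and for the amino acid carriers above. No share over all genes was taken for this split.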

How the data were processed

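Total-RNA libraries of tibialis anterior from 4 Control and 6 LLC mice were sequenced in 1 lane. The authors mapped reads to mm10 with TopHat2 and counted them per gene with HTSeq at default settings; the deposited values are raw counts, whole numbers per Ensembl gene identifier with no normalization. HTSeq counts by strand by default, but the methods name RefSeq genes and the tables list Ensembl identifiers, so the annotation release, and whether the stated setting made these tables, are not known, which matters for the 61 members whose exons overlap another gene (51 an antisense gene). Symbols and coordinates were taken from GENCODE M21 (GRCm38), which matched 37607 of 39179 identifiers, and promoters from RefSeq. Depth was 16693209 to 21303084 counts per sample.

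Genes were filtered by filterByExpr (count minimum 10), which kept 12690 and all 205 members, scaled by TMM, and tested in edgeR 4.0.16 (R 4.3.3; quasi-likelihood F test) on group alone, with Benjamini-Hochberg adjustment over all genes tested. CPM are TMM-scaled; RPKM divide CPM by exonic length. SE were derived from the F statistic. Alternatives were DESeq2 1.42.0, a tool the authors used in another version, and limma 3.58.1 (voom with sample quality weights). Other scalings and filters, a replicate block and each sample left out were alternatives as well. Ratios within samples used an exact permutation test; log2 CPM used a prior count of 2. Named were the called members, a list of carriers well known in muscle, and the 3 members of highest Control RPKM in each class, 52 in all, of which 1 is not reported here, as are some partner genes; other names are marked. Members, classes, partners, markers and motifs were chosen with earlier results of these data known, and the 4 genes that are not carriers were set apart after values were seen.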

Additional observations from a re-analysis of the deposited data

Results flagged for a closer look

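A sample was taken as far from the others when its gap to the nearest sample exceeded Dixon's 95% limit as a share of the group's range. Among 134 groups of 67 measures 12 met this, where 6.7 would by chance at 1 in 20. The measures depend on each other, as shares of 1 total and ratios of the same genes do. The 2 figures therefore cannot be compared as for separate measures. In Control these were Slc41a1 (gap share 0.976, Control 1 at 85.9 CPM against 101 for the next), Slc25a3 (0.864, Control 3 at 880 against 816) and Slc25a47 (0.840, Control 2 at 4.49 against 4.06).

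All 9 in LLC were LLC 1. It was high for Slc38a2 (gap share 0.677, 196 against 140 CPM), Slc16a1 (0.733, 64.7 against 45.9) and Slc7a2 (0.697, 151 against 91.6), and low for Slc39a1 (0.642, 24.1 against 34.1) and Slc37a4 (0.640, 18.7 against 100.2). It was low for the log2 ratio of Slc16a3 to Slc16a1 (0.658, 0.072 against 1.67). Among shares of solute carrier counts it was high for amino acid carriers (0.791, 18.8% against 11.6%) and nucleotide sugar carriers (0.644, 4.47% against 3.60%) and low for mitochondrial carriers (0.746, 45.1% against 55.7%).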

How the results depend on the processing

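The count of called carriers, 10, was 10 with median-of-ratios factors, with mitochondrially encoded genes left out and with a plain count minimum, 11 with no filter and 15 with upper-quartile factors, and the 10 kept their calls under each. It was 24 by DESeq2 and 16 by limma voom with sample quality weights (6 of the 10 shared). With no minimum fold it was 18, and by unadjusted p with 1.5-fold it was 32. With 1 sample left out it ranged from 1 to 20: 2, 1, 2 and 2 without Control 1 to 4, and 18, 20, 12, 18, 3 and 4 without LLC 1 to 6. The share of all genes called was 8.29% by DESeq2, 6.99% with no minimum fold and 7.65% without LLC 1. No such share is given here for the other settings. Whether carriers depended on single samples more than other genes did was not tested. The median over carriers stayed between -0.11 and -0.05. The partner count, 4, ranged from 1 to 4 with 1 sample left out. With a replicate block both counts were 0, and the replicate numbers did not pair the samples: deviations of same-numbered samples correlated at -0.029, 0.009, -0.081 and 0.126. With 1 sample left out the Slc7a5 to Slc7a8 ratio difference ranged from -1.22 to -0.74, Slc20a1 to Slc20a2 from 0.61 to 0.89 and Slc2a4 to Slc2a1 from -0.67 to -0.37, and for each of these the unadjusted p crossed 0.05. The cause was not tested.

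Of the comparisons of 52 named carriers over the alternatives, 906 kept direction and side of the threshold, 68 lost the threshold, 38 gained it and 28 changed sign. The sign changes were of values near 0: under voom Slc22a5 (0.043), Slc48a1 (-0.0057), Slc7a1 (-0.085), Slc44a2 (0.069) and Slc6a8 (0.014), under upper-quartile factors Slc38a4 (-0.010) and Slc39a1 (-0.026), and with the replicate block Slc39a1 (-0.024), Slc2a1 (0.045) and Slc7a1 (-0.0058). With 1 sample left out they ranged from -0.15 to 0.023 for Slc22a5, -0.055 to 0.10 for Slc38a4, -0.040 to 0.095 for Slc39a1, -0.15 to 0.039 for Slc2a1, -0.12 to 0.16 for Slc7a1 and -0.089 to 0.045 for Slc44a2. At this depth, called carriers near 1 CPM rest on few counts.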
